A study of Hypomesus transpacificus with 70 samples.

Results

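The Na+/K+ ATPase of the delta smelt gill was followed through 4 subunit genes, each described in every fish of a short salinity exposure. The members were taken from the study's own list of salinity-responsive transcripts by symbol or name, and comprised the alpha subunits ATP1A1A.4 and ATP1A1A.1, the beta subunit ATP1B1 (listed as atp1b1b) and the gamma subunit ATP1G1 (listed without a symbol, as gamma-like). They made up 4 of the 487 transcripts of that list and were read by 7 of its probes. The paper describes paired overlapping probes for each gene on the array, but the list holds a single probe of ATP1G1. All ATP1G1 values rest on that listed probe, and a further ATP1G1 probe outside the list was not looked for. All 4 passed the filter on dim probes, which kept those reaching a signal of 100 on 50% or more of the arrays (14425 probes in all), and they were tested among 14254 genes and single probes. The study had chosen that list for effects of salinity or its interaction with time in the same fish. A salinity difference in a member and its p-value, adjusted or not, are thus not independent evidence of an effect or its direction.

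The samples were gills of 70 cultured prespawning adult delta smelt (Hypomesus transpacificus), 1 fish per array. All had been held at 2.3 ppt, a brackish salinity, before salinity was ramped over 6 h to 0.4, 2.3, 6, 12 or 18 ppt. Gills were taken when the target was reached (0 h) and after 18 and 42 h at it, times that the labels count from the start of the ramp as 6, 24 and 48 h. The labels also round the salinities, giving 0 for 0.4 ppt and 2 for 2.3 ppt. The pre-experiment group held 5 fish at 2.3 ppt sampled before the ramp. The handling control, kept at 2.3 ppt throughout, held 6 fish at each time. The 0.4, 6, 12 and 18 ppt groups held 4 fish at each time, except 3 at 12 ppt at 18 h. Fish numbers are names within a group, and each fish was sampled once. The methods describe replicate containers only for the handling control, so that container and group cannot be told apart at the other salinities and p-values measure the spread among fish.

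The Na+/K+ ATPase uses ATP to carry sodium out of the cell and potassium into it. The alpha subunit is catalytic and binds the ions and ATP, the beta subunit is a glycoprotein needed for folding and delivery to the membrane, and the gamma subunit, a small protein of the FXYD family, adjusts the ion affinity of the pump. In the fish gill the pump lies mainly in the basolateral membrane of ionocytes, where its gradient serves ion uptake in fresh water and salt secretion in seawater. Salmonid gills use separate alpha isoforms for these tasks. The names ATP1A1A.1 and ATP1A1A.4 follow neighbouring alpha genes of the zebrafish, and which of these tasks either serves in delta smelt was not measured here.

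The probe sequences are shown because each value below is the fluorescence of these 60-base oligonucleotides, and because closely related alpha genes could be read by one another's probes. Capitals mark the 27 bases that both ATP1B1 probes share.
ATP1A1A.4 probe 4669: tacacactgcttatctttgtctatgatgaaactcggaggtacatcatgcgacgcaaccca
ATP1A1A.4 probe 4670: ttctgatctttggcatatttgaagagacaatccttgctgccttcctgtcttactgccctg
ATP1A1A.1 probe 21771: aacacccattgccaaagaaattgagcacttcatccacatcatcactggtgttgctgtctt
ATP1A1A.1 probe 21772: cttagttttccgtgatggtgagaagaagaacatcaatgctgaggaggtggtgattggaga
ATP1B1 probe 3023: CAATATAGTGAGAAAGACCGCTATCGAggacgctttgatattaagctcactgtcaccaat
ATP1B1 probe 3024: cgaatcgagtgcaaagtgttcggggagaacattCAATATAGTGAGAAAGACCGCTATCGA
ATP1G1 probe 6086: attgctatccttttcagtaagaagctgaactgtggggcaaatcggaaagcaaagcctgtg
Other than the ATP1B1 pair, no 2 of these probes shared a run of more than 7 bases on the same strand. Only the probes were compared with one another, and the alpha probes share no long stretch. The match of a probe to the transcript of the other alpha gene, or to further alpha genes of the species, was not tested. The positions of the probes in the genome are not given here.

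Array brightness set the depth. Median processed signals ran from 12.9 to 131 per array, with 3 arrays under 20, and the share of probes well above background from 62% to 90.8%. All 7 member probes were well above background on all 70 arrays and none was saturated. Values are log2 of the quantile-normalized signal, and the probes of a gene were averaged within each fish, so levels can be compared between groups for 1 gene but not between genes. Differences are log2 differences with the standard error of a limma model of 16 group means, whose p-values were corrected for all genes and single probes (Benjamini-Hochberg), and a difference is called at an adjusted p of 0.05 or less. Where all fish of a group lie apart from those of another, the share of all genes and single probes doing so was not counted. Nothing particular to the members is read from such separation. Gill is a mixed tissue, and fewer cells of a type and less RNA per cell cannot be told apart in these values. Of 9 ionocyte markers, 4 had a transcript in the study's list, with 5 transcripts in all. Over all times at 18 ppt, the 2 transcripts of SLC12A2 differed from 2.3 ppt by 0.88 and 0.50 and KCNJ1b by 0.69, and RHCGA, an ammonia channel, differed by -0.21, none of them called. RHCGA was uneven over time, at -1.17, 0.72 and -0.18 at 0, 18 and 42 h (adjusted p = 0.753, 1 and 0.865 from limma). The fifth, a CA9-like carbonic anhydrase, fell by 0.60 (adjusted p = 0.0107 from limma). These markers did not move in 1 direction, and their part in the differences of the pump genes was not tested. Markers of blood, muscle, cartilage and pavement cells had no probe annotation used here, so their part in the differences was not tested.

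**Figure D1:**
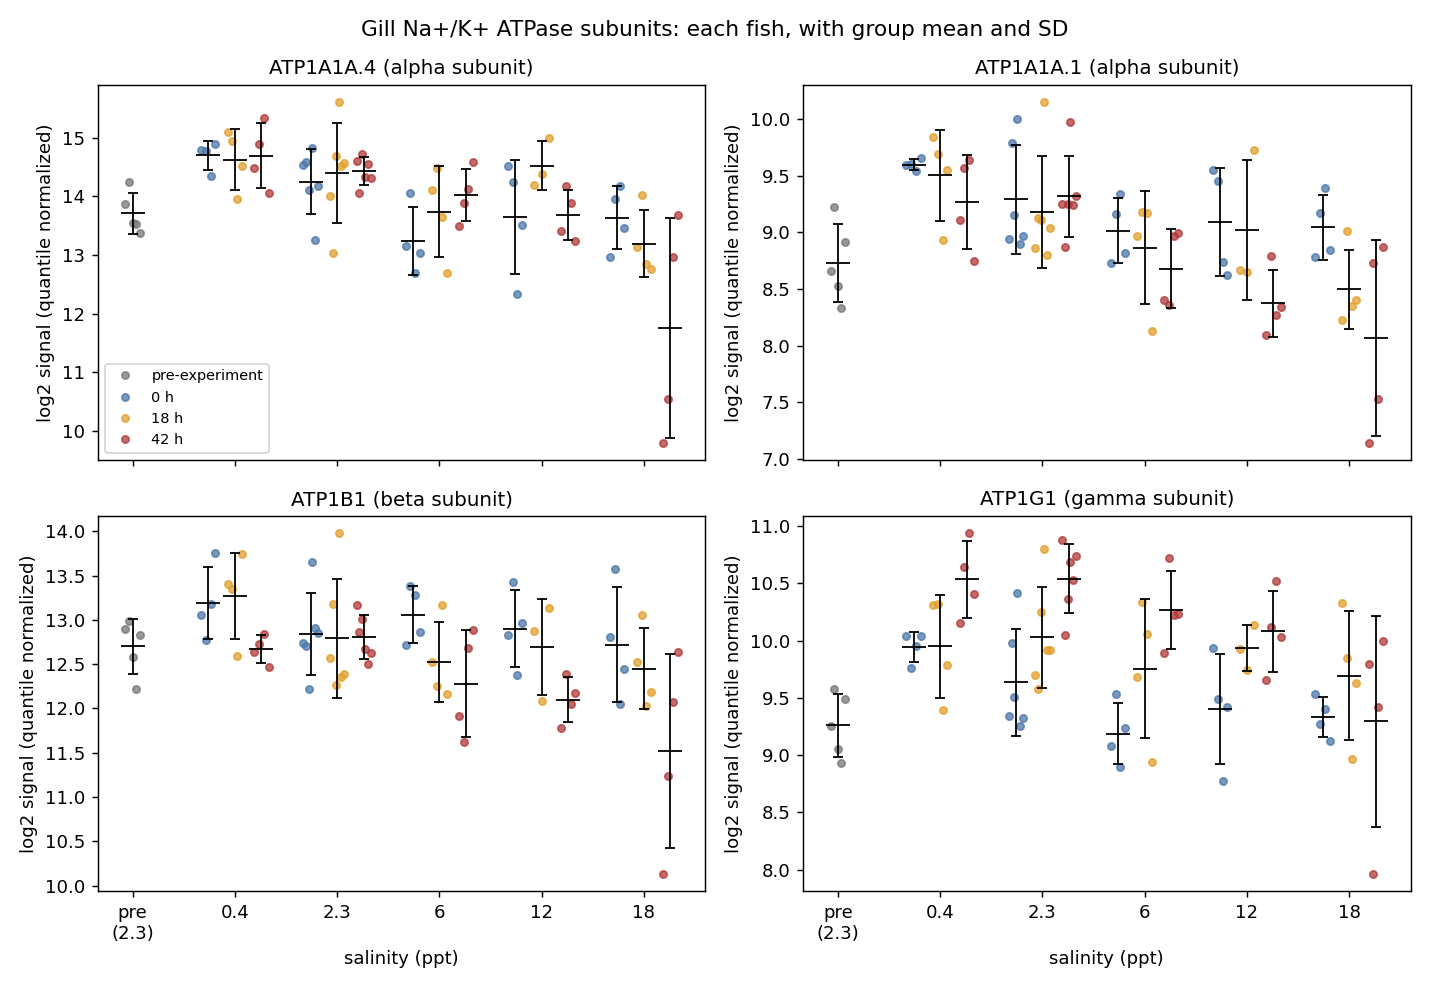
Log2 signal of each gene (vertical axis, quantile normalized) in each fish, by salinity in ppt (horizontal axis) and time (colour), with the group mean and SD in black. The 4 fish at 18 ppt and 42 h span 9.79 to 13.69 for ATP1A1A.4, while the 6 fish at 2.3 ppt and 42 h span 14.06 to 14.73.

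ATP1A1A.4 was lower at 18 ppt than at 2.3 ppt. Its group means covered 2.96 log2 units, from 11.74 at 18 ppt and 42 h to 14.70 at 0.4 ppt and 0 h. At 0.4 ppt it stayed high, at 14.70 ± 0.25 (SD, n = 4) at 0 h, 14.63 ± 0.51 (SD, n = 4) at 18 h and 14.70 ± 0.55 (SD, n = 4) at 42 h. In the handling control the levels were 14.25 ± 0.55 (SD, n = 6), 14.40 ± 0.85 (SD, n = 6) and 14.43 ± 0.24 (SD, n = 6) at these times. Neither of these salinities showed a trend with time larger than its spread. At 6 ppt the level was 13.23 ± 0.58 (SD, n = 4) at 0 h, 13.74 ± 0.77 (SD, n = 4) at 18 h and 14.02 ± 0.45 (SD, n = 4) at 42 h. At 12 ppt it was 13.65 ± 0.98 (SD, n = 4), 14.52 ± 0.42 (SD, n = 3) and 13.67 ± 0.43 (SD, n = 4). The fish at these intermediate salinities overlapped the control at each time. At 18 ppt the level was 13.64 ± 0.54 (SD, n = 4) at 0 h, 13.19 ± 0.57 (SD, n = 4) at 18 h and 11.74 ± 1.88 (SD, n = 4) at 42 h.

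The difference of ATP1A1A.4 between 18 and 2.3 ppt was taken fish by fish. At 42 h the 6 control fish read 14.60, 14.06, 14.73, 14.33, 14.55 and 14.32, and the 4 fish at 18 ppt read 9.79, 10.54, 12.97 and 13.69. All 4 lay below all 6, and fish 1 and 5 lay far below fish 6 and 7. The difference was -2.69 ± 0.45 (SE, 95% confidence interval -3.59 to -1.79, adjusted p = 0.00056 from limma), a 6.45-fold lower signal. At 18 h the control fish read 14.00, 13.03, 14.69, 15.61, 14.52 and 14.57, and the 18 ppt fish 13.14, 14.02, 12.85 and 12.76. The groups overlapped, and the difference of -1.21 ± 0.45 was not called (SE, adjusted p = 0.717 from limma). At 0 h it was -0.61 ± 0.45 (SE, adjusted p = 0.753 from limma), again with overlap. Averaged over the 3 times it was -1.51 ± 0.26 (SE, 95% confidence interval -2.03 to -0.98, adjusted p = 0.00111 from limma), a 2.84-fold lower signal, and each of the 12 fish at 18 ppt lay below the control mean of its time.

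The ATP1A1A.4 result leaned on its most divergent group. The SD of 18 ppt at 42 h was 1.88, against a residual SD of 0.71 over all groups that the model assumes for each. An exact two-sided permutation test was also run, which takes fish of both groups as exchangeable and so does not allow for unequal spread. This exact permutation test gave p = 0.00476 at 42 h, the smallest p that 4 against 6 fish allow. Within times, 100000 permutations gave p = 7e-05 over all 12 fish. Without fish 1 and 5, the difference at 42 h was -1.11 (adjusted p = 0.599 from limma) and that over all times -0.98 (adjusted p = 0.0793 from limma). Fish 5 was also on 1 of the 3 dimmest arrays, with a median signal of 15.4, whereas fish 1 was on an array of median 54.5, close to the median of 54.4 over all arrays. Without the 3 dimmest arrays the difference at 42 h was -2.29 (adjusted p = 0.0221 from limma). With only the groups at 2.3 and 18 ppt fitted, adjusted p of ATP1A1A.4 was 0.0658 over all times and 0.0692 at 42 h from limma. Among the 54 arrays of the first scan day, which leave out fish 1, the difference was -1.29 over all times (adjusted p = 0.0658 from limma) and -2.11 at 42 h (adjusted p = 0.0207 from limma).

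ATP1A1A.1, the second alpha subunit, was also lower at 18 ppt. Its level at 0.4 ppt was 9.60 ± 0.05 (SD, n = 4) at 0 h, 9.50 ± 0.40 (SD, n = 4) at 18 h and 9.27 ± 0.42 (SD, n = 4) at 42 h. The handling control gave 9.29 ± 0.48 (SD, n = 6), 9.18 ± 0.49 (SD, n = 6) and 9.32 ± 0.36 (SD, n = 6). The means of these 2 salinities differed by less than the residual SD of 0.44 at each time. At 6 ppt it was 9.01 ± 0.29 (SD, n = 4), 8.86 ± 0.50 (SD, n = 4) and 8.68 ± 0.35 (SD, n = 4). At 12 ppt it was 9.09 ± 0.48 (SD, n = 4), 9.02 ± 0.62 (SD, n = 3) and 8.37 ± 0.30 (SD, n = 4), and at 42 h these 4 fish, from 8.09 to 8.79, lay below all 6 control fish. That difference of -0.94 ± 0.28 was not called (SE, adjusted p = 0.0984 from limma). At 18 ppt the level was 9.04 ± 0.29 (SD, n = 4), 8.50 ± 0.35 (SD, n = 4) and 8.07 ± 0.86 (SD, n = 4).

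For ATP1A1A.1 at 42 h, the control fish read 9.25, 8.87, 9.25, 9.97, 9.24 and 9.32, and the 18 ppt fish 7.14, 8.73, 7.53 and 8.87. Fish 1 and 6 were the low ones here, and the highest 18 ppt fish only just lay below the lowest control. The difference at 42 h was -1.25 ± 0.28 (SE, 95% confidence interval -1.81 to -0.68, adjusted p = 0.0492 from limma), a 2.38-fold lower signal. The exact two-sided permutation test gave p = 0.00476. Over all times the difference was -0.73 ± 0.16 (SE, 95% confidence interval -1.05 to -0.40, adjusted p = 0.0307 from limma), with 11 of 12 fish below the control mean of their time. Both calls lay close to the threshold. The one at 42 h was lost on leaving out any of 51 of the 70 fish, and the one over all times on leaving out any of 11, which were fish 1 and 5 of 18 ppt at 0 h, fish 1, 3 and 4 of 18 ppt at 18 h, fish 1 and 6 of 18 ppt at 42 h, and the control fish A2 and B1 at 0 h, B2 at 18 h and B1 at 42 h. Adjusted p for the average was at most 0.121 in these fits.

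ATP1B1, the beta subunit, was not called lower at 18 ppt. It read 13.19 ± 0.41 (SD, n = 4), 13.27 ± 0.49 (SD, n = 4) and 12.67 ± 0.16 (SD, n = 4) at 0, 18 and 42 h in 0.4 ppt. In the handling control it read 12.85 ± 0.46 (SD, n = 6), 12.79 ± 0.67 (SD, n = 6) and 12.81 ± 0.25 (SD, n = 6). The control means differed by less than their SDs. At 6 ppt the level was 13.06 ± 0.32 (SD, n = 4), 12.52 ± 0.46 (SD, n = 4) and 12.28 ± 0.60 (SD, n = 4). At 12 ppt it was 12.90 ± 0.43 (SD, n = 4), 12.69 ± 0.54 (SD, n = 3) and 12.10 ± 0.26 (SD, n = 4), and the fish at 42 h, from 11.78 to 12.39, lay below all 6 control fish, without a call (adjusted p = 0.439 from limma). At 18 ppt it was 12.72 ± 0.65 (SD, n = 4), 12.45 ± 0.45 (SD, n = 4) and 11.52 ± 1.09 (SD, n = 4).

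The 18 ppt fish at 42 h read 10.13, 11.24, 12.07 and 12.64 for ATP1B1, and the control fish 13.17, 12.86, 13.01, 12.67, 12.50 and 12.63. Fish 1 and 5 were again the lowest, and fish 7 lay inside the control range. The difference was -1.29 ± 0.33 at 42 h (SE, 95% confidence interval -1.94 to -0.63, adjusted p = 0.106 from limma) and -0.58 ± 0.19 over all times (SE, 95% confidence interval -0.96 to -0.21, adjusted p = 0.421 from limma), with 10 of 12 fish below the control mean. Tested alone, the difference gave p = 0.0143 at 42 h in the exact permutation test and p = 0.0196 over all times in the permutation test within times, both unadjusted and two-sided. Since the list was chosen for salinity effects in these fish, these p-values add no independent evidence of a fall. Without fish 7 of 18 ppt at 42 h, the difference at 42 h was -1.66 (adjusted p = 0.00637 from limma), and without fish 1 it was -0.82 (adjusted p = 0.142 from limma). In 18 of 23 alternatives of processing or samples it stayed uncalled, where the permutation test is judged by its unadjusted p. It was called in the deposited log2 table (-1.37, adjusted p = 0.0384 from limma) and with scaling to the 75th percentile (-1.32, adjusted p = 0.0354 from limma). A block for photomultiplier setting also gave a call (-1.33, adjusted p = 0.0466 from limma).

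ATP1G1, the gamma subunit, was called lower at 18 ppt at 42 h, when the other salinities had their highest means. It read 9.95 ± 0.13 (SD, n = 4), 9.95 ± 0.45 (SD, n = 4) and 10.53 ± 0.34 (SD, n = 4) at 0, 18 and 42 h in 0.4 ppt. The handling control read 9.64 ± 0.47 (SD, n = 6), 10.03 ± 0.44 (SD, n = 6) and 10.54 ± 0.30 (SD, n = 6). At both salinities the highest mean was that of 42 h. The 6 ppt fish read 9.19 ± 0.27 (SD, n = 4), 9.75 ± 0.61 (SD, n = 4) and 10.26 ± 0.34 (SD, n = 4). The 12 ppt fish read 9.41 ± 0.48 (SD, n = 4), 9.94 ± 0.20 (SD, n = 3) and 10.08 ± 0.35 (SD, n = 4). At 18 ppt the level was 9.33 ± 0.18 (SD, n = 4), 9.69 ± 0.56 (SD, n = 4) and 9.29 ± 0.92 (SD, n = 4), and its mean at 42 h was close to that at 0 h.

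At 42 h the control fish read 10.88, 10.05, 10.36, 10.69, 10.53 and 10.74 for ATP1G1, and the 18 ppt fish 9.80, 7.96, 9.42 and 10. All 4 lay below all 6, with fish 5 lowest. The difference was -1.25 ± 0.28 (SE, 95% confidence interval -1.81 to -0.69, adjusted p = 0.0492 from limma), and the exact two-sided permutation test gave p = 0.00476. Without the 3 dimmest arrays, which include that of fish 5, it was -0.80 (adjusted p = 0.583 from limma), and the call was lost on leaving out any of 47 of the 70 fish. Over all times the difference of -0.63 ± 0.16 was not called (SE, 95% confidence interval -0.95 to -0.31, adjusted p = 0.141 from limma), with 11 of 12 fish below the control mean. Leaving out fish 7 of 18 ppt at 42 h brought it to -0.71 (adjusted p = 0.0353 from limma).

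Counted together, 2 of the 4 genes were called lower at 18 ppt over all times, where 0.126% of all genes and single probes were called lower, and 3 of 4 at 42 h, where 0.0842% were. Since the list was chosen for salinity effects in these fish, these shares describe the members and test nothing. None of the 4 was called at 0 h or at 18 h, where 0.00702% of all were called lower at each. Tested alone at 18 h by the exact two-sided permutation test, unadjusted, ATP1A1A.1 gave p = 0.0333 (difference -0.68) and ATP1A1A.4 p = 0.0571. The choice of the list limits these p-values in the same way. The median difference at 18 ppt over all times was -0.68 for the members and -0.03 for all genes and single probes. The test of salinity over all levels was called for ATP1A1A.4 (adjusted p = 0.000298 from limma) and ATP1A1A.1 (adjusted p = 0.00504 from limma) and not for ATP1B1 (adjusted p = 0.132 from limma) or ATP1G1 (adjusted p = 0.0741 from limma), with 0.835% called among all. Adjusted over single probes only, the listed ATP1G1 probe gave adjusted p = 0.0487 from limma in the same test. The share of single probes called in it was not counted.

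**Figure D2:**
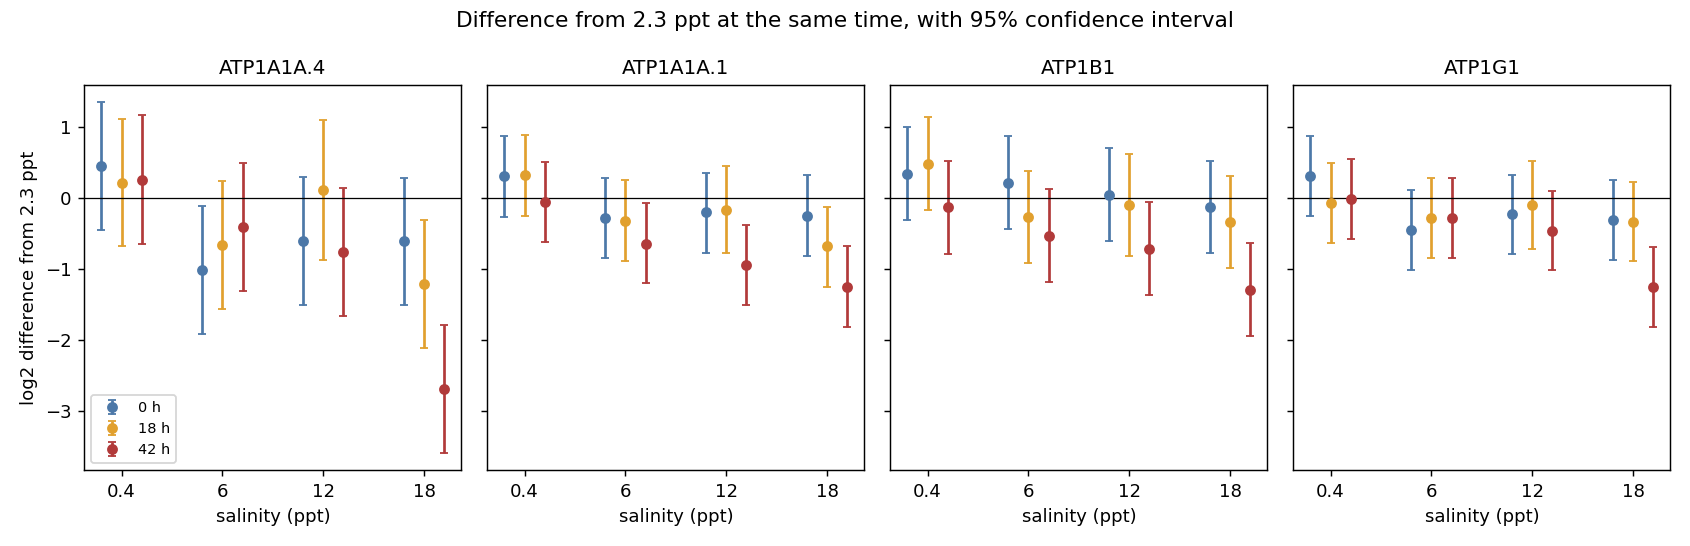
Log2 difference from 2.3 ppt at the same time (vertical axis) with its 95% confidence interval, by salinity in ppt (horizontal axis) and time (colour). At 18 ppt the differences of ATP1A1A.4 were -0.61, -1.21 and -2.69 at 0, 18 and 42 h.

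Whether the 18 ppt difference changed with time was tested as well. From 0 to 42 h it changed by -2.08 ± 0.64 for ATP1A1A.4, -1.0 ± 0.40 for ATP1A1A.1, -1.16 ± 0.46 for ATP1B1 and -0.94 ± 0.40 for ATP1G1 (SE). All 4 changes were negative, none was called (adjusted p = 1 for each from limma, unadjusted p from 0.00188 to 0.0207), and 0% of all genes and single probes were called for this change. Within photomultiplier setting 580 alone, which holds 1 fish of 18 ppt at 42 h, the change of ATP1A1A.4 was -3.81 (adjusted p = 0.0248 from limma). The interaction of salinity and time was not called for any member either, with adjusted p of 0.246, 0.577, 0.546 and 0.429 from limma in the same order and 0.0561% called among all. That the 18 ppt difference was past the threshold at 42 h and not before is therefore not shown to be a difference between times.

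Averaged over the times, all 4 genes at 6 and 12 ppt lay between the control and 18 ppt. At 6 ppt the differences from 2.3 ppt over all times were -0.70 for ATP1A1A.4, -0.41 for ATP1A1A.1, -0.19 for ATP1B1 and -0.33 for ATP1G1, and at 12 ppt they were -0.41, -0.44, -0.25 and -0.26. At 0.4 ppt they were 0.31, 0.19, 0.23 and 0.08. All 4 genes were thus below the control at 6 and 12 ppt and above it at 0.4 ppt, but none of these differences was called (the lowest adjusted p from limma was 0.325), as 0% of all were called lower at 6 ppt or higher at 0.4 ppt and 0.0281% lower at 12 ppt. For ATP1A1A.4 the 6 ppt fish were lowest at 0 h, at -1.02 ± 0.45 (SE, adjusted p = 0.157 from limma), and nearest to the control at 42 h, at -0.41 ± 0.45 (SE). At 12 ppt the differences at 0, 18 and 42 h were -0.60, 0.12 and -0.76 for ATP1A1A.4. For ATP1A1A.1 they were -0.20, -0.17 and -0.94. None of these single differences was called, and no order in time is read from them.

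Set against 0.4 ppt, the lowest salinity, 18 ppt was lower by 1.82 ± 0.28 for ATP1A1A.4 (SE, adjusted p = 6.61e-05 from limma) and by 0.92 ± 0.18 for ATP1A1A.1 (SE, adjusted p = 0.00242 from limma). Each of the 12 fish at 18 ppt lay below the 0.4 ppt mean of its time for both alpha genes. ATP1B1 differed by -0.81 ± 0.21 (SE, adjusted p = 0.0634 from limma) and ATP1G1 by -0.70 ± 0.18 (SE, adjusted p = 0.0603 from limma), neither called. Among all genes and single probes 0.211% were called lower. Against 12 ppt the differences were -1.09 for ATP1A1A.4, -0.29 for ATP1A1A.1, -0.33 for ATP1B1 and -0.37 for ATP1G1, and against 6 ppt -0.81, -0.31, -0.39 and -0.30. None of these was called, where 0% of all were called lower against 12 ppt and 0.0211% against 6 ppt. The 95% confidence interval for ATP1A1A.4 was -1.68 to -0.51 against 12 ppt.

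The 16 group means of each gene were also ranked. Neighbours in such a ranking lie close by construction, and the residual SD is that of single fish. Small gaps therefore do not show that groups are alike. For ATP1A1A.1 and ATP1G1 all 15 gaps between neighbouring means were smaller than the residual SD of 0.44. For ATP1A1A.4 the only larger gap was the 1.45 between 18 ppt at 42 h and the next group, 18 ppt at 18 h. For ATP1B1 it was the 0.58 between 18 ppt at 42 h and 12 ppt at 42 h, against a residual SD of 0.51. The highest means were those of 0.4 ppt at 0 h for both alpha genes, 0.4 ppt at 18 h for ATP1B1 and 2.3 ppt at 42 h for ATP1G1. For ATP1G1 the lowest mean was not at 18 ppt but at 6 ppt at 0 h, with 9.19.

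With exposure time, for whose main effect the list had not been chosen, 3 of the 4 genes changed. A transcript could enter the list through the interaction of salinity and time, so these changes are not wholly free of that choice. Averaged over the salinities, ATP1B1 fell by 0.67 ± 0.15 (SE, adjusted p = 0.000375 from limma) and ATP1A1A.1 by 0.47 ± 0.13 (SE, adjusted p = 0.00398 from limma) from 0 to 42 h, while ATP1G1 rose by 0.64 ± 0.13 (SE, adjusted p = 8.3e-05 from limma). ATP1A1A.4 differed by -0.18 ± 0.21 (SE, adjusted p = 0.515 from limma). Such changes were common, with 18.9% of all genes and single probes called lower and 22.1% higher, and nothing particular to the members is read from their count. The overall test of time was called for ATP1A1A.1 (adjusted p = 0.0146 from limma), ATP1B1 (adjusted p = 0.00125 from limma) and ATP1G1 (adjusted p = 0.000387 from limma) and not for ATP1A1A.4 (adjusted p = 0.336 from limma), with 35.6% called among all. At 18 h none of the 4 differed from 0 h by a called amount, the nearest being ATP1G1 with 0.37 ± 0.13 (SE, adjusted p = 0.0776 from limma), where 6.57% were called.

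Within salinities, ATP1G1 was called higher at 42 h than at 0 h in 2.3 and 6 ppt. In the handling control, ATP1G1 read 9.34, 9.98, 9.51, 10.42, 9.25 and 9.32 at 0 h, and all 6 fish at 42 h lay above the mean of these. It rose by 0.91 ± 0.25 (SE, adjusted p = 0.0142 from limma), where 9.53% of all were called. With slide as a fixed block the difference was 0.65 (adjusted p = 0.233 from limma) and within setting 610 it was 0.21 (adjusted p = 0.914 from limma), and the call was also lost with dim probes kept, within setting 580 and with only 2.3 and 18 ppt fitted. At 6 ppt it rose by 1.07 ± 0.31 (SE, adjusted p = 0.0134 from limma), without overlap of the 4 fish at each time, where 22.4% were called. At 0.4 ppt the fish also did not overlap between times, but the difference of 0.59 there and that of 0.68 at 12 ppt were not called (adjusted p = 0.288 and 0.0903 from limma), where 5.76% and 26% were. The share of all genes and single probes without overlap between times was not counted, so nothing particular to ATP1G1 is read from it. At 18 ppt it differed by -0.04 ± 0.31 (SE, 95% confidence interval -0.65 to 0.58).

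ATP1A1A.1 and ATP1B1 showed hardly any difference between 0 and 42 h in the handling control, at 0.03 ± 0.25 and -0.04 ± 0.29 (SE). At 6 ppt the differences were -0.33 and -0.78, at 12 ppt -0.72 and -0.80, and at 18 ppt -0.98 and -1.21, in this order of genes, and none was called. Some alternatives did call those at 18 ppt, for ATP1B1 the blocks for scan day (-1.21, adjusted p = 0.0432 from limma) and photomultiplier setting (-1.43, adjusted p = 0.0328 from limma) among others, and for ATP1A1A.1 the fit without the 3 dimmest arrays (-1.2, adjusted p = 0.0212 from limma) and setting 580. At 0.4 ppt they were -0.33 and -0.52. ATP1A1A.4 at 18 ppt fell by 1.89 ± 0.49 from 0 to 42 h (SE, adjusted p = 0.0364 from limma), where 1.12% of all were called, while at 0.4, 2.3, 6 and 12 ppt its differences were -0.01, 0.18, 0.79 and 0.02 and were not called. The call at 18 ppt was lost in 12 of 22 alternatives of processing or samples. Without fish 1 and 5 of 42 h the difference was -0.31 (adjusted p = 0.823 from limma), and within the first scan day -1.06 (adjusted p = 0.551 from limma). Without fish 1 of 42 h the difference was -1.24 (adjusted p = 0.25 from limma) and without fish 5 it was -1.49 (adjusted p = 0.0757 from limma), and the call was also lost without fish 2, 3 or 5 of 0 h (adjusted p = 0.0888, 0.123 and 0.0717 from limma).

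**Figure D3:**
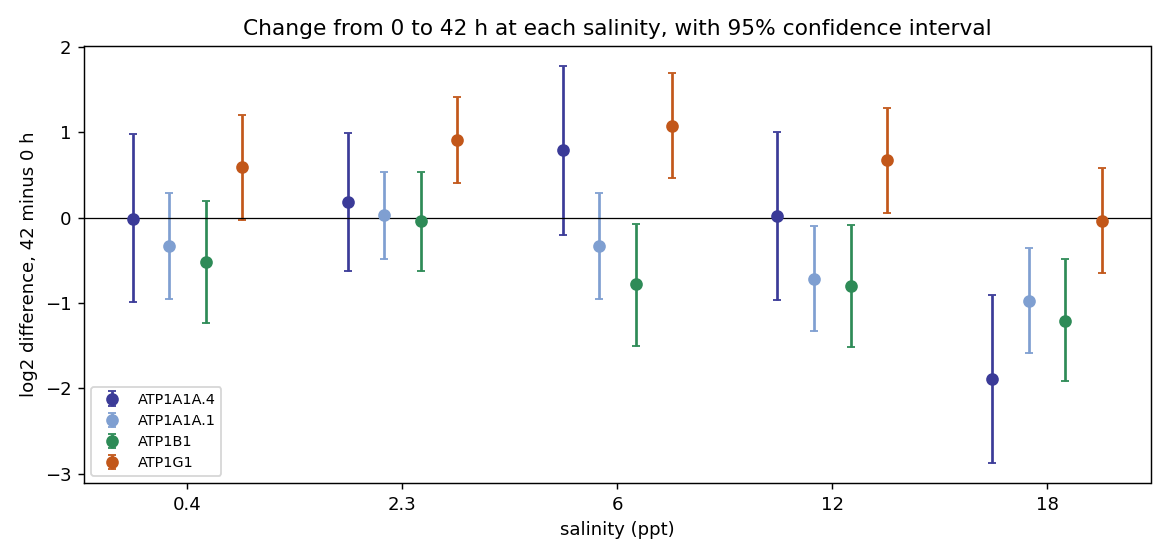
Log2 difference between 42 and 0 h at the same salinity (vertical axis) with its 95% confidence interval, by salinity in ppt (horizontal axis) and gene (colour). ATP1G1 lies at 0.91 in 2.3 ppt and at -0.04 in 18 ppt.

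The pre-experiment fish, sampled before the ramp at 2.3 ppt, were compared with the fish taken at 0 h. They read 13.71 ± 0.35 (SD, n = 5) for ATP1A1A.4, 8.73 ± 0.35 (SD, n = 5) for ATP1A1A.1, 12.71 ± 0.31 (SD, n = 5) for ATP1B1 and 9.26 ± 0.28 (SD, n = 5) for ATP1G1. The handling control at 0 h differed from them by 0.54, 0.56, 0.14 and 0.38 in this order, and 0% of all genes and single probes were called. The fish at 0.4 ppt differed by 0.99, 0.87, 0.48 and 0.69. None of these differences was called (adjusted p = 0.348, 0.246, 0.467 and 0.315 from limma), where 0.232% of all were. For ATP1A1A.4, ATP1A1A.1 and ATP1G1 the 0.4 ppt fish did not overlap with the pre-experiment fish. The share of all genes and single probes without such overlap was not counted, so nothing particular to the members is read from it. The fish at 18 ppt differed by -0.07, 0.31, 0.02 and 0.07, where 0.021% were called. The fish at 6 and 12 ppt were not called either, where 0% and 0.533% of all were. Measured from the pre-experiment fish, the levels of the 18 ppt fish at 0 h thus differed by less than the residual SD for all 4 genes, and the control at 0 h lay above both. The pre-experiment group holds 1 of the 3 dimmest arrays, that of fish A1.

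The size of the 18 ppt difference was compared between the genes within fish, over 6 pairs with p-values adjusted over the 6. The difference of ATP1A1A.4 exceeded that of ATP1A1A.1 by -0.78 (adjusted p = 0.0128), that of ATP1B1 by -0.92 (adjusted p = 0.00522) and that of ATP1G1 by -0.88 (adjusted p = 0.00522), in 100000 two-sided permutations within times. It held in 11, 11 and 10 of the 12 fish at 18 ppt in this order. By time, the excess was -0.36, -0.49 and -0.31 at 0 h, -0.53, -0.87 and -0.88 at 18 h, and -1.44, -1.4 and -1.44 at 42 h. The permutation test takes fish of both salinities as exchangeable and does not allow for unequal spread. All these genes came from a list chosen for salinity effects in the same fish, so the sizes compared are not free of that choice. The other 3 genes differed from one another by -0.14 (ATP1A1A.1 less ATP1B1, adjusted p = 0.711), -0.10 (ATP1A1A.1 less ATP1G1, adjusted p = 0.824) and 0.05 (ATP1B1 less ATP1G1, adjusted p = 0.853), by the same permutation test. Without fish 1 and 5 of 18 ppt at 42 h, the excess of ATP1A1A.4 was -0.29 over ATP1A1A.1 (adjusted p = 0.174), -0.67 over ATP1B1 and -0.49 over ATP1G1 (adjusted p = 0.0322 for both, permutation test). A difference on a log2 scale also depends on how far a probe's signal lies above background, and ATP1A1A.4 had the brightest probes of the 4 genes, at the 98.5 and 97.5 percentiles of the kept probes, against 97 and 95.8 for ATP1B1, 74 and 61.5 for ATP1A1A.1 and 81.3 for ATP1G1; the part of brightness in these differences was not tested.

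**Figure D4:**
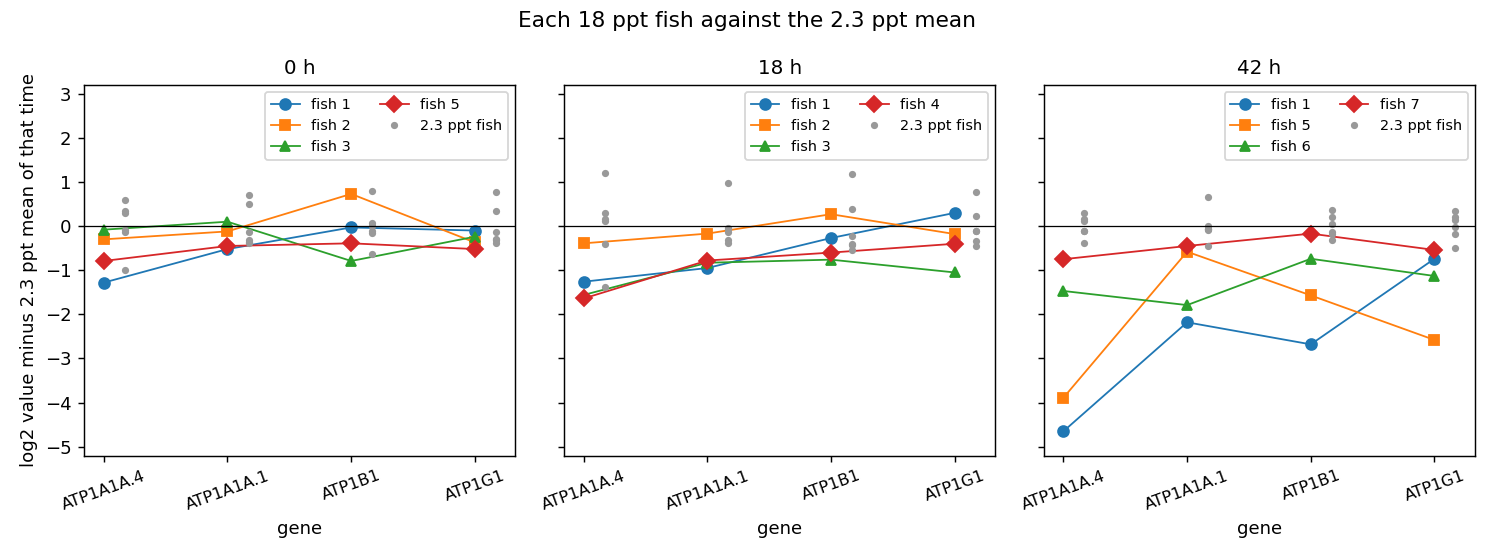
Log2 value of each 18 ppt fish minus the 2.3 ppt mean of the same time (vertical axis) for the 4 genes (horizontal axis), with lines joining the values of 1 fish and the 2.3 ppt fish as grey points. At 42 h, fish 1 lies at -4.65 for ATP1A1A.4 and at -0.74 for ATP1G1, and fish 5 at -3.89 and -2.58.

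The fish at 18 ppt and 42 h did not share 1 pattern. Relative to the control mean of that time, fish 1 lay at -4.65 for ATP1A1A.4, -2.18 for ATP1A1A.1, -2.68 for ATP1B1 and -0.74 for ATP1G1, and held the lowest value of all 70 fish for both alpha genes and the beta gene. Fish 5 lay at -3.89, -0.58, -1.57 and -2.58, and held the lowest value of all 70 for ATP1G1. Fish 6 lay at -1.47, -1.79, -0.74 and -1.13, with ATP1A1A.1 the lowest of its 4 values. Fish 7 lay at -0.75, -0.45, -0.17 and -0.54, all below the control mean and all within 1 log2 unit of it. The SD of this group was the largest of the 16 for every member, at 1.88, 0.86, 1.09 and 0.92. The array of fish 1 was scanned on another day and at another photomultiplier setting (580) than those of fish 5, 6 and 7 (610). With only the 30 arrays at 610, which leave out fish 1, ATP1A1A.4 at 42 h differed by -2.15 (adjusted p = 0.0962 from limma), and with only the 40 arrays at 580, where fish 1 stands alone for its group and is assumed to vary like the others, by -4.41.

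Across all fish the genes varied together to differing degrees, given here as a description. Pearson's r over the 70 fish was 0.72 between the alpha genes, 0.64 between ATP1A1A.4 and ATP1B1, 0.74 between ATP1A1A.1 and ATP1B1, 0.63 between ATP1A1A.4 and ATP1G1, 0.38 between ATP1A1A.1 and ATP1G1 and 0.21 between ATP1B1 and ATP1G1. After subtraction of the group means these became 0.60, 0.57, 0.60, 0.60, 0.42 and 0.35. Without fish 1 and 5 of 18 ppt at 42 h, these within-group values were 0.69, 0.41, 0.60, 0.70, 0.65 and 0.42, so the order of the pairs depended on these fish. The points share arrays, so array brightness and tissue makeup enter each r. In the handling control, fish B2 of 2.3 ppt at 18 h was the highest of its group for all 4 genes, with 15.61 for ATP1A1A.4, 10.15 for ATP1A1A.1, 13.98 for ATP1B1 and 10.80 for ATP1G1.

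**Figure D5:**
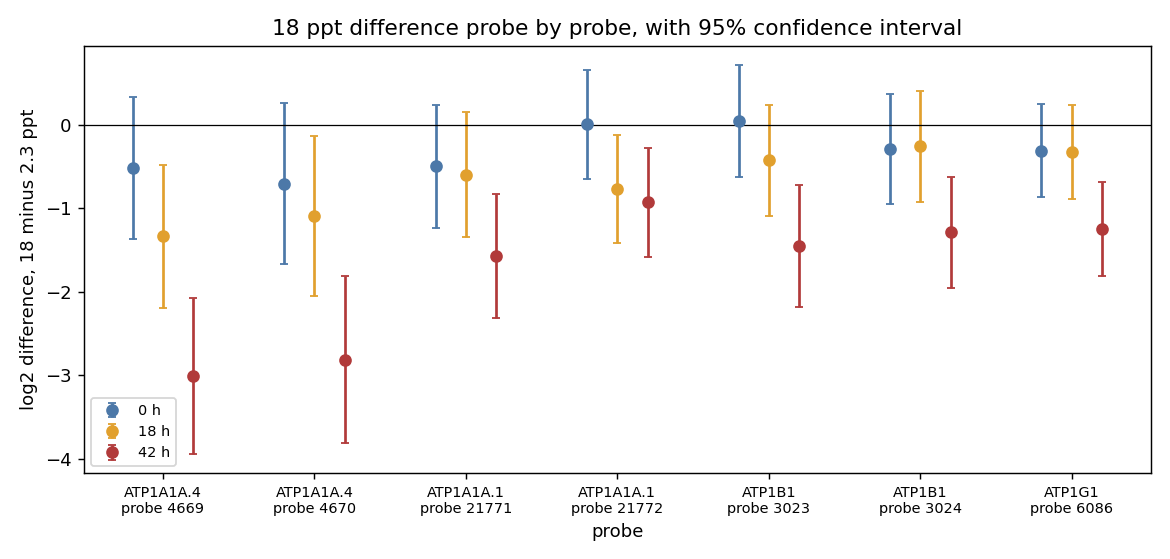
Log2 difference between 18 and 2.3 ppt (vertical axis) with its 95% confidence interval for each probe (horizontal axis) and time (colour). At 42 h the ATP1A1A.4 probes lie at -3.01 and -2.81 and the ATP1A1A.1 probes at -1.57 and -0.93.

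The probes of a gene were also read singly, with p-values adjusted over all single probes. Probes 4669 and 4670 of ATP1A1A.4 correlated at r = 0.97 over 67 fish with both spots usable and fell by 1.62 ± 0.25 (SE, adjusted p = 8.7e-05 from limma) and 1.54 ± 0.28 (SE, adjusted p = 0.00154 from limma) at 18 ppt. The image analysis had marked 3 spots of these probes as outliers, which were left out, among them that of probe 4669 in fish 6 of 18 ppt at 42 h. Probes 21771 and 21772 of ATP1A1A.1 correlated at only 0.48 over 70 fish. The first fell by 0.89 ± 0.21 (SE, adjusted p = 0.0447 from limma) and the second differed by -0.57 ± 0.19 without a call (SE, adjusted p = 0.367 from limma). From 0 to 42 h, probe 21772 fell by 0.54 ± 0.15 (SE, adjusted p = 0.00386 from limma). Probe 21771 differed by -0.39 ± 0.18 without a call (SE, adjusted p = 0.0657 from limma). Whether the 2 probes changed unequally, at 18 ppt or with time, was not tested. Probes 3023 and 3024 of ATP1B1, which share 27 bases, correlated at 0.94 over 69 fish and both differed by -0.61 at 18 ppt (SE 0.20 and 0.19, adjusted p = 0.329 and 0.285 from limma).

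Among other gill ion and water transport transcripts of the same list, 14 of 18 passed the filter. As the list was chosen for salinity effects in these fish, counts among these transcripts test nothing. At 18 ppt over all times 2 were called lower, where 0.126% of all genes and single probes were, 0 higher and 12 not called. The median difference of the 14 was -0.54. The 2 called lower were SLC26A6, an anion exchanger, at -1.47 ± 0.30 (SE, adjusted p = 0.0107 from limma), and a CA9-like carbonic anhydrase at -0.60 ± 0.12 (SE, adjusted p = 0.0107 from limma). At 42 h, 2 were called lower, where 0.0842% of all were. They were SLC26A6 at -3.28 (adjusted p = 0.000385 from limma) and KCNJ16, an inward rectifier potassium channel, at -1.84 (adjusted p = 0.0492 from limma). The 2 transcripts of SLC12A2, the Na+/K+/2Cl- cotransporter that works beside the pump in salt-secreting ionocytes, differed by 0.88 and 0.50 (adjusted p = 0.494 and 0.303 from limma), opposite in sign to the 4 pump genes. Against 0.4 ppt, 4 of the 14 were called lower, where 0.211% of all were, and 2 higher. The share of all called higher was not counted. Lower, as the pump genes were, lay SLC26A6 at -1.81 and the CA9-like carbonic anhydrase at -0.73 (adjusted p = 0.00104 and 0.00109 from limma). So did 1 transcript of the aquaporin AQP3b at -1.34 and the claudin CLDN5a at -1.39 (adjusted p = 0.00316 and 0.0139 from limma). The 2 called higher were 1 transcript of SLC12A2 at 0.98 ± 0.16 (SE, adjusted p = 0.000105 from limma) and KCNJ1b, a potassium channel of ionocytes, at 1.59 ± 0.26 (SE, adjusted p = 0.000141 from limma). The other SLC12A2 transcript differed by 1.42 ± 0.39 without a call (SE, adjusted p = 0.105 from limma).

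Of 400 other transcripts of the list, those most like ATP1A1A.4 over the 70 fish were SLC26A6 and cyp2k16, a cytochrome P-450, with r = 0.79 each, and cycsb, a cytochrome c, with r = 0.77. Within groups r was 0.73, 0.66 and 0.75. At 42 h their differences at 18 ppt were -3.28, -1.86 and -1.28, of which the first was called (adjusted p = 0.000385, 0.0782 and 0.161 from limma). They were picked for following ATP1A1A.4 over all fish, those of 18 ppt at 42 h included. Low values in that group are thus partly fixed by the choice and are no separate result.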

How the data were processed

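Gill RNA of 70 fish from the short-term salinity experiment was analysed, and the longer enzyme and osmolality experiment was not analysed here. The authors hybridized Cy3-labeled RNA to Agilent arrays and read them out as background-subtracted intensity values using Feature Extraction 11.5.1.1. These carry no scaling between arrays. Also deposited were log2 values, quantile normalized and centered per probe, which correlated with values computed here at 0.9994 or above and served as an alternative. Groups came from the labels.

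Here, probes reaching a signal of 100 on 50% or more of the arrays were retained, outlier spots left out, and signals quantile normalized and log2 transformed. Probes of a listed transcript were averaged after subtracting each probe's mean over arrays. limma 3.58.1 in R 4.3.3 was fitted to 16 group means (54 residual and 3.38 prior degrees of freedom), with Benjamini-Hochberg adjustment. Single comparisons were repeated by permutation, exactly or 100000 times. On simulated data, for 18 against 2.3 ppt over 13576 units, 82.5% of 200 changes of 1 log2 unit were recovered and 5.17% of calls were false. The simulated arrays were independent, with the same SD in all groups and the same change at each time. These rates need not hold for the data, where 18 ppt at 42 h had the largest SD for every member. The number of fish limits the precision.

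The members and gene lists were chosen with earlier results of these data known. The named genes were the 4 members, 18 ion and water transport transcripts of the study's list, and the 3 transcripts most correlated with ATP1A1A.4. Replicate numbers did not pair the fish, since over 480 same-numbered pairs the mean correlation of deviations was 0.004, against 0.001 for other pairs. The letters A to C before the numbers of control and pre-experiment fish were dropped for this. The labels do not define these letters, and differences between them were not tested. Alternatives covered background correction, scaling, filters, the authors' table, single probes, blocks for slide, scan day, photomultiplier setting and replicate number, array brightness, the fish in the fit and the outlier spots. The photomultiplier settings are those in the deposited file labels. Arrays lay on 18 slides and were scanned on 2 days (54 and 16 arrays).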

Additional observations from a re-analysis of the deposited data

Results flagged for a closer look

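Of 60 combinations of gene and group of 4 to 6 fish, 1 held a fish far from the rest of its group. For ATP1A1A.1, fish B2 of the handling control (2.3 ppt) at 18 h read 10.15, while the next highest of the 6 fish read 9.13, a gap of 0.76 of the range of the group. The gap was judged against Dixon's 95% critical value, which by its construction singles out about 1 in 20 groups by chance. Without this fish, ATP1A1A.1 differed by -0.66 between 18 and 2.3 ppt (adjusted p = 0.077 from limma).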

How the results depend on the processing

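Of 6026 values recomputed under alternatives, 5740 kept their direction and side of the threshold, 183 lost a call, 53 gained one and 50 changed sign. Each result of a single gene was refitted 70 times with 1 fish left out, so this count says little about processing. In the other alternatives, the call for 18 against 2.3 ppt at 42 h was lost in 11 of 22 for ATP1A1A.1. It was lost in 11 of 22 for ATP1G1 and in 3 of 23 for ATP1A1A.4. All these counts include the permutation tests of single genes, judged by an unadjusted p of 0.05 or less. That is a looser threshold than the adjusted p that defines a call. The alternatives on outlier spots, the dim arrays, 2 fish of 18 ppt, single scan days or settings and the permutation tests were chosen after seeing the data. Values below are log2 differences unless named as an adjusted p, and causes were not tested. An adjusted p also depends on the other genes and single probes tested. ATP1G1 has a single probe in the study's list, so its call lost with the second probe came with an unchanged value. Probe 21771 read -0.89 both among all single probes (adjusted p = 0.0447 from limma) and as the first probe of ATP1A1A.1 (adjusted p = 0.0773 from limma). With normexp background correction, the call was lost for 18 against 2.3 ppt (ATP1A1A.1 -0.59), 18 against 2.3 ppt at 42 h (ATP1A1A.1 -1.0) and 42 against 0 h at 18 ppt (ATP1A1A.4 -1.78), and a call was gained for 18 against 0.4 ppt (ATP1G1 -0.69), and the sign changed for 18 against 2.3 ppt at 0 h (ATP1B1 0.01). With scaling to the 75th percentile, a call was gained for 18 against 2.3 ppt at 42 h (ATP1B1 -1.32) and 18 against 0.4 ppt (ATP1B1 -0.89). In the deposited log2 table, a call was gained for 18 against 2.3 ppt at 42 h (ATP1B1 -1.37) and 18 against 0.4 ppt (ATP1B1 -0.88), and the sign changed for 42 against 0 h at 2.3 ppt (ATP1B1 0.03). With dim probes kept, the call was lost for 18 against 2.3 ppt (ATP1A1A.1 -0.75), 18 against 2.3 ppt at 42 h (ATP1G1 -1.36), 42 against 0 h at 18 ppt (ATP1A1A.4 -1.91) and 42 against 0 h at 2.3 ppt (ATP1G1 0.92). With a signal of 100 required on every array, a call was gained for 42 against 0 h at 18 ppt (ATP1B1 -1.22). With probes kept that were well above background on 50% of arrays, the call was lost for 42 against 0 h at 18 ppt (ATP1A1A.4 -1.91). With slide as a fixed block, the call was lost for 18 against 2.3 ppt (ATP1A1A.1 -0.86), 18 against 2.3 ppt at 42 h (ATP1A1A.1 -1.13, ATP1G1 -1.11), 18 against 0.4 ppt (ATP1A1A.1 -0.9), 42 against 0 h at 18 ppt (ATP1A1A.4 -1.57), 42 against 0 h at 2.3 ppt (ATP1G1 0.65), salinity test (adjusted p) (ATP1A1A.1 0.097) and exposure time test (adjusted p) (ATP1A1A.1 0.0638), and the sign changed for 0.4 against 2.3 ppt (ATP1G1 -0.05), 42 against 0 h at 18 ppt (ATP1G1 0.02) and 42 against 0 h at 2.3 ppt (ATP1A1A.4 -0.12, ATP1A1A.1 -0.34). With slide as a random block, the call was lost for 18 against 2.3 ppt at 42 h (ATP1A1A.1 -1.21, ATP1G1 -1.21) and 42 against 0 h at 18 ppt (ATP1A1A.4 -1.79), and a call was gained for 18 against 0.4 ppt (ATP1B1 -0.86), and the sign changed for 42 against 0 h at 2.3 ppt (ATP1A1A.1 -0.09). With scan day as a block, a call was gained for 18 against 0.4 ppt (ATP1B1 -0.81) and 42 against 0 h at 18 ppt (ATP1B1 -1.21), and the sign changed for 42 against 0 h at 2.3 ppt (ATP1A1A.1 -0.01). With photomultiplier setting as a block, the call was lost for 42 against 0 h at 18 ppt (ATP1A1A.4 -1.94), and a call was gained for 18 against 2.3 ppt at 42 h (ATP1B1 -1.33), 18 against 0.4 ppt (ATP1B1 -0.89), 42 against 0 h at 18 ppt (ATP1B1 -1.43) and salinity test (adjusted p) (ATP1B1 0.0325), and the sign changed for 42 against 0 h at 2.3 ppt (ATP1A1A.1 -0.07). With the replicate number as a block, although the numbers did not pair the fish, the call was lost for 18 against 2.3 ppt (ATP1A1A.1 -0.62) and 18 against 2.3 ppt at 42 h (ATP1A1A.1 -0.89, ATP1G1 -0.89), and the sign changed for 42 against 0 h at 18 ppt (ATP1G1 0.14) and 42 against 0 h at 2.3 ppt (ATP1A1A.1 -0.02). With only 2.3 and 18 ppt fitted, the call was lost for 18 against 2.3 ppt (ATP1A1A.4 -1.51, ATP1A1A.1 -0.73), 18 against 2.3 ppt at 42 h (ATP1A1A.4 -2.69, ATP1A1A.1 -1.25, ATP1G1 -1.25), 42 against 0 h at 18 ppt (ATP1A1A.4 -1.89) and 42 against 0 h at 2.3 ppt (ATP1G1 0.91). With unmoderated variances, the call was lost for 18 against 2.3 ppt at 42 h (ATP1A1A.1 -1.25, ATP1G1 -1.25). From the first probe of each gene, the call was lost for 18 against 2.3 ppt (ATP1A1A.1 -0.89), 18 against 2.3 ppt at 42 h (ATP1A1A.1 -1.57), 42 against 0 h over salinities (ATP1A1A.1 -0.39) and exposure time test (adjusted p) (ATP1A1A.1 0.12), and the sign changed for 18 against 2.3 ppt at 0 h (ATP1B1 0.04) and 42 against 0 h at 2.3 ppt (ATP1B1 0.1). From the second probe of each gene, the call was lost for 18 against 2.3 ppt (ATP1A1A.1 -0.57), 18 against 2.3 ppt at 42 h (ATP1A1A.1 -0.93, ATP1G1 -1.25), 18 against 0.4 ppt (ATP1A1A.1 -0.8), 42 against 0 h at 18 ppt (ATP1A1A.4 -1.81) and salinity test (adjusted p) (ATP1A1A.1 0.0992), and the sign changed for 18 against 2.3 ppt at 0 h (ATP1A1A.1 0.01) and 18 against 2.3 ppt (ATP1A1A.1 less ATP1B1 0.09, ATP1A1A.1 less ATP1G1 0.1). Without fish 1 and 5 of 18 ppt at 42 h, the call was lost for 18 against 2.3 ppt (ATP1A1A.4 -0.98, ATP1A1A.1 -0.68, ATP1A1A.4 less ATP1A1A.1 -0.29), 18 against 2.3 ppt at 42 h (ATP1A1A.4 -1.11, ATP1A1A.1 -1.12, ATP1G1 -0.84) and 42 against 0 h at 18 ppt (ATP1A1A.4 -0.31), and the sign changed for 42 against 0 h over salinities (ATP1A1A.4 0.14) and 42 against 0 h at 18 ppt (ATP1G1 0.38). Without the 3 dimmest arrays, the call was lost for 18 against 2.3 ppt at 42 h (ATP1G1 -0.8) and 42 against 0 h at 18 ppt (ATP1A1A.4 -1.49), and a call was gained for 42 against 0 h at 18 ppt (ATP1A1A.1 -1.2), and the sign changed for 42 against 0 h at 18 ppt (ATP1G1 0.41). With outlier spots kept, a call was gained for 18 against 0.4 ppt (ATP1B1 -0.87, ATP1G1 -0.72), and the sign changed for 42 against 0 h at 2.3 ppt (ATP1B1 0.02). Within the first scan day, the call was lost for 18 against 2.3 ppt (ATP1A1A.4 -1.29, ATP1A1A.1 -0.73) and 42 against 0 h at 18 ppt (ATP1A1A.4 -1.06), and the sign changed for 42 against 0 h over salinities (ATP1A1A.4 0.03). Within setting 580, the call was lost for 18 against 2.3 ppt (ATP1A1A.1 -1.11), 18 against 2.3 ppt at 42 h (ATP1A1A.1 -2.28, ATP1G1 -0.57) and 42 against 0 h at 2.3 ppt (ATP1G1 0.89), and a call was gained for 18 against 2.3 ppt (ATP1B1 -1.17), 18 against 2.3 ppt at 42 h (ATP1B1 -2.64), 18 against 0.4 ppt (ATP1B1 -1.41), 42 against 0 h over salinities (ATP1A1A.4 -0.73), 42 against 0 h at 18 ppt (ATP1A1A.1 -1.86, ATP1B1 -2.31) and change of the 18 ppt difference from 0 to 42 h (ATP1A1A.4 -3.81), and the sign changed for 42 against 0 h at 18 ppt (ATP1G1 0.45) and 42 against 0 h at 2.3 ppt (ATP1B1 0.08). Within setting 610, the call was lost for 18 against 2.3 ppt (ATP1A1A.4 -0.99, ATP1A1A.1 -0.7), 18 against 2.3 ppt at 42 h (ATP1A1A.4 -2.15, ATP1A1A.1 -0.89, ATP1G1 -1.5), 18 against 0.4 ppt (ATP1A1A.4 -1.23, ATP1A1A.1 -0.63), 42 against 0 h over salinities (ATP1A1A.1 -0.64, ATP1G1 0.51), 42 against 0 h at 18 ppt (ATP1A1A.4 -1.55) and 42 against 0 h at 2.3 ppt (ATP1G1 0.21), and the sign changed for 0.4 against 2.3 ppt (ATP1A1A.1 -0.07, ATP1B1 -0.02), 18 against 2.3 ppt at 18 h (ATP1A1A.4 0.06, ATP1G1 0.45), 18 against 12 ppt (ATP1B1 0.19) and 42 against 0 h at 2.3 ppt (ATP1A1A.4 -0.28, ATP1A1A.1 -0.74). By permutation of the single gene, the unadjusted p was 0.05 or less, counted here as a call gained, for 18 against 2.3 ppt (ATP1B1 -0.58, ATP1G1 -0.63), 18 against 2.3 ppt at 18 h (ATP1A1A.1 -0.68) and 18 against 2.3 ppt at 42 h (ATP1B1 -1.29). 

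On leaving out 1 fish at a time, some fits changed a call or a sign. The ranges over fits were -1.52 to -0.94 for ATP1A1A.1 18 against 2.3 ppt at 42 h, -1.48 to -0.8 for ATP1G1 18 against 2.3 ppt at 42 h, -0.94 to -0.66 for ATP1B1 18 against 0.4 ppt, -0.78 to -0.56 for ATP1G1 18 against 0.4 ppt and -0.82 to -0.62 for ATP1A1A.1 18 against 2.3 ppt. They were 0.0343 to 0.142 for the adjusted p of the ATP1G1 salinity test, -2.54 to -1.24 for ATP1A1A.4 42 against 0 h at 18 ppt, -1.24 to -0.67 for ATP1A1A.1 42 against 0 h at 18 ppt, -0.27 to 0.41 for ATP1G1 42 against 0 h at 18 ppt and -0.71 to -0.48 for ATP1G1 18 against 2.3 ppt. Further ranges were -1.66 to -0.82 for ATP1B1 18 against 2.3 ppt at 42 h, -1.58 to -0.74 for ATP1B1 42 against 0 h at 18 ppt, 0.0459 to 0.199 for the adjusted p of the ATP1B1 salinity test, -0.41 to 0.1 for ATP1B1 18 against 2.3 ppt at 0 h and -0.11 to 0.17 for ATP1A1A.1 42 against 0 h at 2.3 ppt. Others were -0.17 to 0.12 for ATP1B1 42 against 0 h at 2.3 ppt, -0.01 to 0.3 for ATP1A1A.4 42 against 0 h at 2.3 ppt, -0.32 to 0.06 for ATP1A1A.1 less ATP1G1, 18 against 2.3 ppt and -0.07 to 0.26 for ATP1B1 less ATP1G1, 18 against 2.3 ppt. ATP1A1A.4 at 18 ppt kept its call over all times and at 42 h in every such fit. The count of all genes and single probes called lower at 18 ppt by limma was 18, and moved by over 1.5 times to 1 (signal of 100 required on every array), to 9 (with slide as a fixed block), to 4 (with the replicate number as a block), to 3 (with only 2.3 and 18 ppt fitted), to 10 (within the first scan day), to 11 (within setting 580) and to 0 (within setting 610). With a signal of 100 required on every array, ATP1A1A.1 and ATP1G1 had no probe left. Setting 580 holds 1 fish of 18 ppt at 42 h, assumed to vary like the others.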
